A study of Homo sapiens with 8 samples.

Results

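The response of DKO-3 colon cancer cells to low oxygen was described from 4 of the 8 arrays of the series, namely the 2 labelled DKO-3 after 12 h in 1% O2 (hypoxia) and the 2 labelled DKO-3 in 21% O2 (normoxia). The arrays were assigned to these groups by their labels, and all 12735 genes bright enough to be tested were compared, of which 44 passed the threshold. DKO-3 is called K-ras wild-type in the labels, which also describe it as a K-ras knockout. It is a derivative of the DLD-1 line in which the mutant K-ras allele was disrupted. The other 4 arrays held DKS-5, labelled K-ras mutant, under the same 2 oxygen levels with 2 arrays each, and served here to estimate the spread and to set the responses of both lines side by side. Each genotype was thus represented by 1 cell line, so the K-ras genotype and any other difference between the lines cannot be told apart. The level of the K-ras gene is not analysed here. Expression was measured on Affymetrix HG-U133 Plus 2.0 arrays, in which sets of short probes report the brightness (signal) of a transcript. The submitters state that the culture was repeated to give 2 samples per condition, and nothing further says how separate these cultures were, so the p-values reflect only how these samples varied, which may be partly technical.

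Cells sense oxygen through prolyl hydroxylases, which mark the alpha subunits of the hypoxia-inducible factors (HIF) for destruction by the VHL protein as long as oxygen is present. In hypoxia the alpha subunits escape this mark, pair with ARNT and bind short DNA motifs near their target genes. The targets known from many cell types take up glucose and run glycolysis, hold pyruvate back from the mitochondria, remove mitochondria, restrain mTOR, signal to blood vessels and rebuild the collagen matrix. In colon tumours these programmes meet those driven by RAS, which also raises glucose uptake.

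After 12 h of hypoxia 44 genes rose in DKO-3 and 0 fell, which is 0.346% and 0.0% of the genes tested. A call required an adjusted p under 0.05 from limma, a linear model fitted across all genes, with Benjamini-Hochberg adjustment. At an unadjusted p under 0.05 there were 999 genes on the higher side (7.84%) and 342 on the lower side (2.69%). The 44 genes rose by between 1.02 and 2.41 on the log2 scale, that is 2.03-fold to 5.31-fold, with a median of 1.502, against a median of 0.04 over all genes tested. Both hypoxia arrays lay above both normoxia arrays in all 44, as they did in 25.0% of all genes tested, while in 17.1% both lay below. A positive change was found in 54.4% of all genes tested. All changes are differences of log2(signal + 16), where the added 16 damps the noise of dim probe sets and makes the fold of dim genes smaller than that of the signals. Of the 44 genes, 10 had a mean normoxia signal under 16, and 22 had a mean hypoxia signal over 500. The brightness limit for testing took the mean over all 8 arrays, so a gene dim in normoxia could be tested through its hypoxia arrays.

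**Figure D1:**
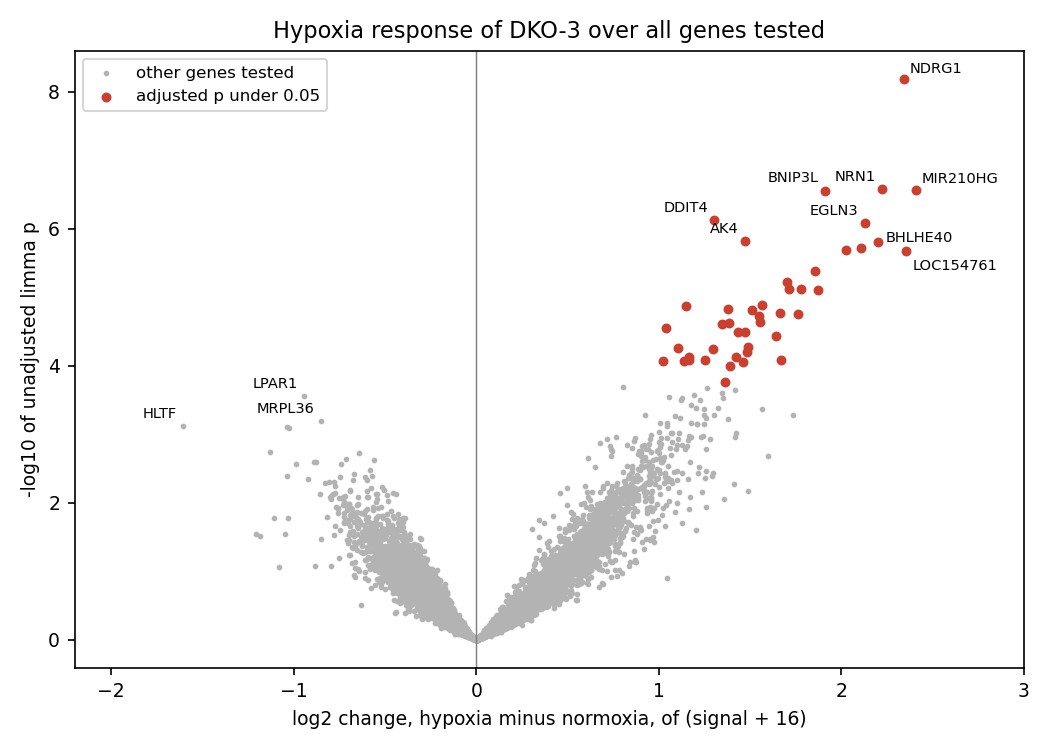
Change in DKO-3 on the log2 scale (x) against minus log10 of the unadjusted limma p (y) for the 12735 genes tested, each point a gene. The 44 genes past the threshold (red) all lie to the right of 0, between 1.02 and 2.41, and none of the genes on the left reaches it.

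In such bulk RNA a change within each cell and a change in the mix of cells cannot be told apart. The trimmed mean of the deposited signals ran from 133 to 201 over the 8 arrays and was brought to 172.1. After this scaling the median signal was 30.1 in DKO-3 hypoxia replicate 1 and 23.0 to 25.1 in the other arrays. Pearson's r over the genes tested was 0.983 between the 2 hypoxia arrays and 0.983 between the 2 normoxia arrays of DKO-3, where genes are not independent replicates. Between hypoxia and normoxia arrays of DKO-3 it ran from 0.972 to 0.984, so replicates were not always the closest arrays. RNA quality differed between arrays, as read from the 3′ to 5′ signal ratio of the ACTB control probe sets, which is higher where less of the 5′ part of the transcript was copied. In DKO-3 this ratio was 49.0 and 14.9 at normoxia but 11.47 and 11.02 after hypoxia, and that of GAPDH was 4.15 and 2.09 against 1.53 and 1.61. In DKS-5 the ACTB ratio was 55.1 and 34.3 at normoxia and 54.8 and 25.6 after hypoxia. With these ratios as a covariate all 44 genes kept a positive change, with a median of 1.54, but 7 of them passed, namely NDRG1, MIR210HG, NRN1, BHLHE40, BNIP3L, PPFIA4 and KDM3A. The median standard error of the 44 was 0.334 with the covariate and 0.255 without it. Colon epithelial markers such as EPCAM (5316 to 6244 over the 4 arrays), CDH1 (4479 to 5673) and KRT18 (3813 to 4808) were bright, whereas VIL1 (12.8 to 17.6) was dim and CDX1, LGALS4 and GPA33 were too dim to be tested. The summed signal of the 12 epithelial markers ran from 19350 to 21501 in normoxia and from 20969 to 22700 in hypoxia. Of 13 markers of fibroblasts, endothelium, leukocytes and red cells, COL1A1 and HBB alone passed the filter on dim genes, and the summed signal of all 13 was 69.1 to 131.9 in normoxia and 123.4 to 143.9 in hypoxia.

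The calls, more than the size of the rises, rested on array 1 of the hypoxia pair more than on any other array. Without DKO-3 hypoxia replicate 1 only NDRG1 passed (adjusted p = 0.0101), although all 44 genes kept a positive change with a median of 1.43. Without DKO-3 hypoxia replicate 2, 22 genes passed, 20 of them from the 44. Without normoxia replicate 1, 20 genes rose and 4 fell, with 19 of the 44 among the rises, and without normoxia replicate 2, 37 rose, with 20 of the 44 among them. Among the 4 fits that each left out a DKO-3 array, the calls that ended only without hypoxia replicate 1 were those of MIR210HG, LOC154761, NRN1, BHLHE40, EGLN3, EFHD1, PRR15L, BNIP3L, RIMKLA, PFKFB4, AK4 and DDIT4. The signal in hypoxia replicate 1 was above that in replicate 2 for 32 of the 44 genes. The median log2 difference, replicate 2 minus replicate 1, was -0.16 in the 44 and -4.5e-05 over all genes tested.

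**Figure D2:**
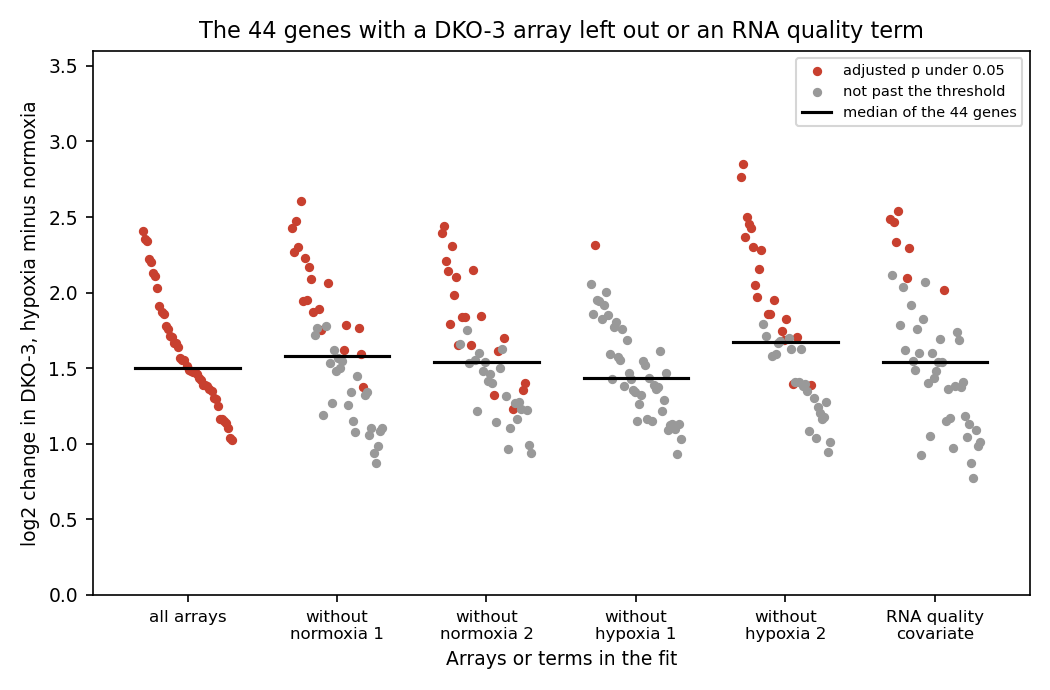
Change of each of the 44 genes in DKO-3 on the log2 scale (y), in the order of their size with all arrays, in fits that leave out 1 DKO-3 array or add the RNA quality covariate (x). Every point stays above 0, with medians from 1.43 to 1.67, while the number past the threshold (red) drops to 1 without hypoxia replicate 1 and to 7 with the covariate.

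MIR210HG had the largest fitted change, with 16 added to the signals and all arrays in the fit. It is the host transcript of the microRNA miR-210, a long-known hypoxia-induced microRNA that represses mitochondrial iron-sulphur assembly genes. Its signal was 15.4 and 14.6 in normoxia and 194 and 113 in hypoxia. Both normoxia values lay near the filter on dim probe sets (13.8), and both hypoxia values stood clear of them. It rose by 2.41 ± 0.28 (SE; 5.31-fold, adjusted p = 0.000876), and its other probe set gave 1.93. The order of the leading genes depended on the setting. With 1 added to the signals ANGPTL4 (3.73) and NRN1 (3.599) stood above MIR210HG (3.22), without hypoxia replicate 1 NDRG1 (2.31) stood above it (2.05), and with the RNA quality covariate BHLHE40 (2.54) did (2.49). The array reports the host transcript and not the mature microRNA. The mature sequences that lie within MIR210HG are given below from RefSeq (GRCh38.p14), to show what this transcript carries, with the seed (bases 2 to 8) in capitals.
hsa-miR-210-3p, chr11:568112-568133, minus strand: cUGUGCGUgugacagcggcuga
hsa-miR-210-5p, chr11:568150-568171, minus strand: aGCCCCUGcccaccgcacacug

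HIF binds the core motif ACGTG or GCGTG, and promoters of 4 genes that rose are shown to make this concrete: MIR210HG, BHLHE40 and the chromosome 4 pair ANKRD37 and CFAP96. Each runs from 250 bases before to 50 bases after the transcript start in RefSeq (GRCh38.p14), 5′ to 3′ on the strand of the gene, with the motif in capitals, also where it reads on the other strand as CACGT or CACGC.
MIR210HG, chr11:568408-568707, minus strand: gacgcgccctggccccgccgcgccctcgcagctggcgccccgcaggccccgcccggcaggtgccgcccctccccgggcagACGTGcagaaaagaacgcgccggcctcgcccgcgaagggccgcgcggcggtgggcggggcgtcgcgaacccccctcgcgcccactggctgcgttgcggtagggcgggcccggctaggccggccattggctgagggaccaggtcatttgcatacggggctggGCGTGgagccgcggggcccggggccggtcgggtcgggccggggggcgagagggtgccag
BHLHE40, chr3:4979187-4979486, plus strand: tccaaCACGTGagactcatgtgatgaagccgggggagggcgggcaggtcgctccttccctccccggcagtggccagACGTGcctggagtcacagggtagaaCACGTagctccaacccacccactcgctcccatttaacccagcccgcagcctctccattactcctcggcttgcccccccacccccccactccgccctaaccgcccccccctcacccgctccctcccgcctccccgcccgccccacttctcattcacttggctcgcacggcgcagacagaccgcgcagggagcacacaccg
ANKRD37, chr4:185396591-185396890, plus strand: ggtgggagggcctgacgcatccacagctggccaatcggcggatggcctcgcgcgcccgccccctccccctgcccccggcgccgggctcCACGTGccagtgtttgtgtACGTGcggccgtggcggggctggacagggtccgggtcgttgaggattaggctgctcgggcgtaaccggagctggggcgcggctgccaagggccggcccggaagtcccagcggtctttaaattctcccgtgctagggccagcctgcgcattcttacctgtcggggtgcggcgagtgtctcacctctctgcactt
CFAP96, chr4:185426004-185426303, plus strand: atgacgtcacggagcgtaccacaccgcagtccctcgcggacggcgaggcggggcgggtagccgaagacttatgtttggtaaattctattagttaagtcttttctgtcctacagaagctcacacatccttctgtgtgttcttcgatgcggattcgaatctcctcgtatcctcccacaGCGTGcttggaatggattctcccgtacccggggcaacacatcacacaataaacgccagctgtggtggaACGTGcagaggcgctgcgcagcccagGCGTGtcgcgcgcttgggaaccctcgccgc

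These windows held 2 motifs in MIR210HG, 4 in BHLHE40, 3 in ANKRD37 and 3 in CFAP96, where CACGTG counts on both strands. RefSeq promoters were matched for 34 of the 44 genes. ACGTG or GCGTG stood in 24 of the 34 (70.6%), against 62.2% of 10345 promoters of genes tested and 48.4% of all 27305 promoters of the table. ACGTG alone stood in 20 of the 34 (58.8%), against 26.7% and 21.6%. The windows of EGLN3, NRN1 and EFHD1 held neither motif, which says only that these letters are not in this stretch. These shares are descriptions, and no binding was measured.

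Of the 44 genes, 23 were in the lists of core or further hypoxia genes. These lists were chosen with earlier results of these data known, so the counts and medians below are descriptions only. NDRG1, a differentiation-linked gene known for its strong induction by low oxygen, had signals of 413 and 342 in normoxia and 2006 and 1932 in hypoxia. The replicates of each group were close, and it rose by 2.34 ± 0.20 (adjusted p = 8.18e-05), the smallest p of all genes. It was the only gene that passed in each of the 21 alternative fits. VLDLR, a lipoprotein receptor that serves lipid uptake, went from 25.3 and 16.2 to 116 and 92.5, a rise of 1.71 ± 0.26 (adjusted p = 0.00622). TMEM45A, a membrane protein gene often induced in hypoxic tumours, went from 113 and 55.8 to 275 and 293 (1.64 ± 0.29, adjusted p = 0.0153). AK4, a mitochondrial adenylate kinase, went from 800 and 649 to 1923 and 2138, and its 4 probe sets gave changes from 1.47 to 2.35. Of 25 core hypoxia genes tested, 14 rose and 11 did not pass, with a median of 1.15 against 0.04 over all genes. Both hypoxia arrays were above both normoxia arrays in 24 of the 25, against 25.0% of all genes tested. The exception was BNIP3 (-0.48), named here after its values were seen, at 85.3 and 58.4 in normoxia and 64.8 and 32.0 in hypoxia. A list of 32 further hypoxia genes shared members with the core list, among them EGLN3, AK4, KDM3A, ANKRD37 and MXI1. Of the 32 genes, 13 rose and all 32 had a positive value (54.4% over all genes tested), with a median of 0.75. With the RNA quality covariate these medians were 0.97 and 0.73.

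**Figure D3:**
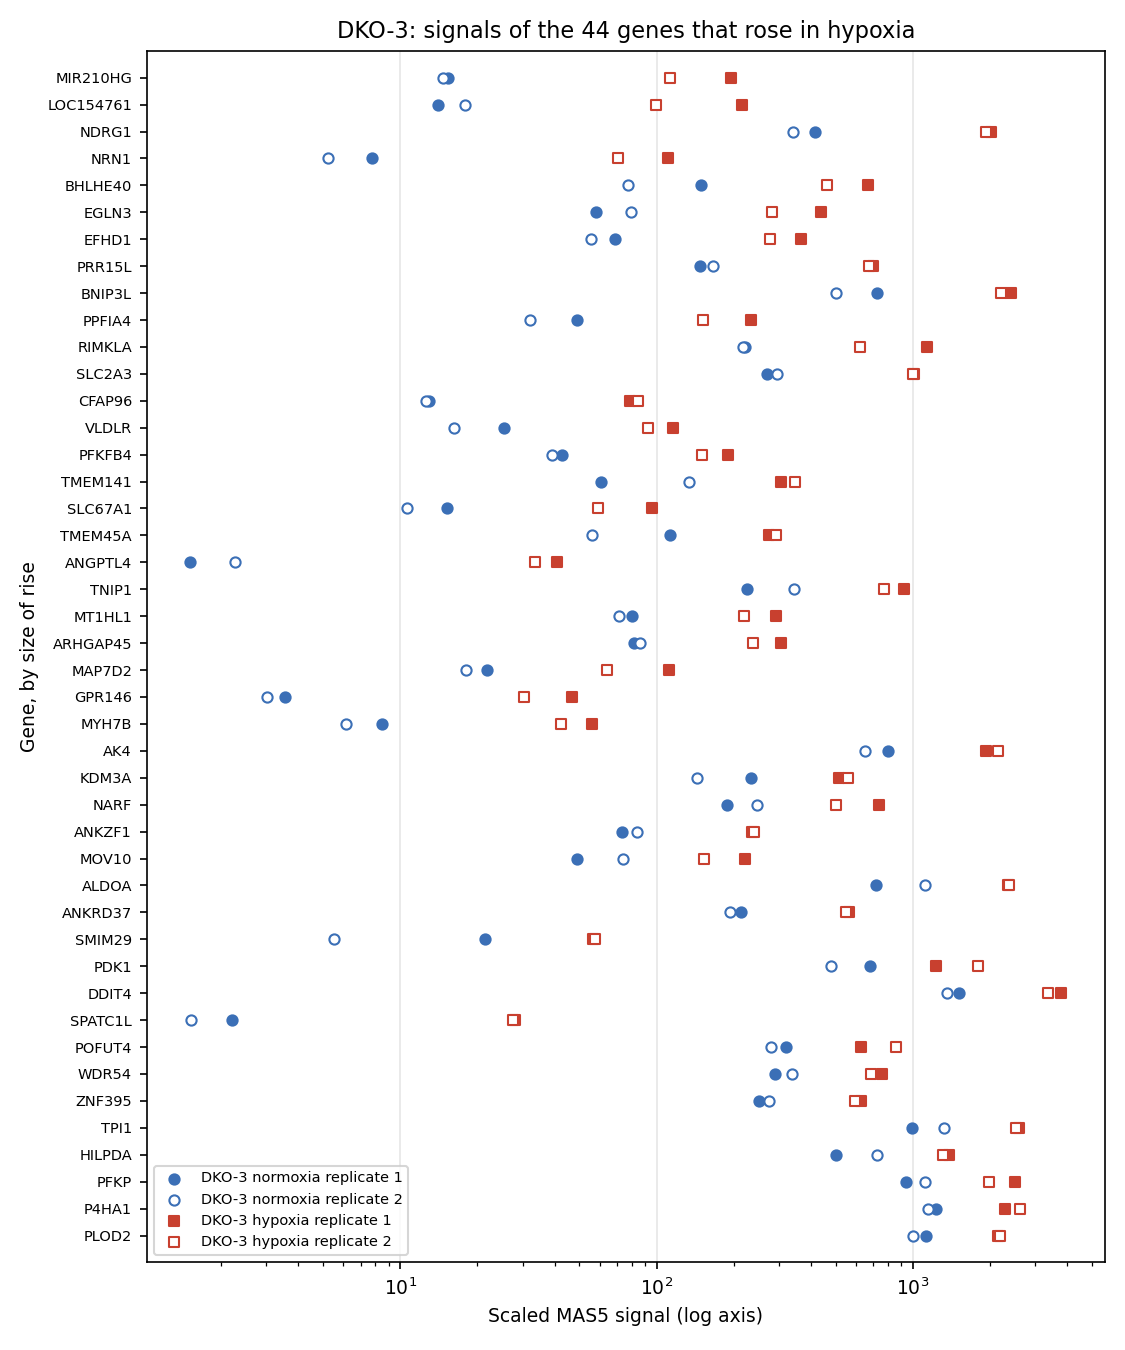
Scaled MAS5 signal (x, log axis) of the 44 genes that rose in DKO-3, ordered by the size of the change, with each of the 2 normoxia (blue circles) and 2 hypoxia (red squares) arrays drawn. In every gene both squares lie to the right of both circles, from ANGPTL4 with 1.52 and 2.28 in normoxia to DDIT4 with 3781 and 3355 in hypoxia.

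In the oxygen-sensing system itself 1 of 12 genes tested rose. This was EGLN3, the prolyl hydroxylase that HIF induces as a brake on itself, with 58.1 and 79.5 in normoxia and 437 and 283 in hypoxia. The change was 2.13 ± 0.27 (adjusted p = 0.00176), and both of its probe sets gave over 2.1. The main oxygen sensor EGLN1 was at 1634 and 1360 against 2066 and 2394, a change of 0.57 ± 0.20 that did not pass (adjusted p = 0.333). The transcripts of the HIF subunits did not pass either. HIF1A had 2488 and 1562 in normoxia and 1277 and 1583 in hypoxia, so the groups overlapped (-0.47 ± 0.22, adjusted p = 0.469, and 0.01 with the RNA quality covariate). EPAS1, which encodes HIF-2 alpha, stood at 0.41 (adjusted p = 0.626, and 0.64 with the covariate) and their partner ARNT at 0.13 (adjusted p = 0.887, and -0.02 with the covariate), with overlapping arrays in both. VHL was dim, at 28.0 and 35.3 against 14.8 and 15.1 (-0.62 ± 0.25, adjusted p = 0.415).

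Among transcriptional regulators, BHLHE40 rose. It encodes a basic helix-loop-helix repressor that also acts in the circadian clock, and its signal went from 149 and 77.5 to 665 and 462 (2.20 ± 0.29, adjusted p = 0.00242). The normoxia arrays were apart from each other, yet both lay far below the hypoxia arrays. It was the only one of 19 clock and repressor genes to pass. Its relative BHLHE41 went from 21.3 and 28.1 to 117 and 46.6, where the hypoxia arrays disagreed (1.17 ± 0.41, adjusted p = 0.349). MXI1, a MYC antagonist, was at 0.61 and the MYC family gene MYCL at 1.16 (adjusted p = 0.399 and 0.157), and of 11 MYC network genes tested 0 passed. ZNF395, a transcription factor gene, went from 251 and 275 to 626 and 593 (1.17 ± 0.22, adjusted p = 0.0267). Of 19 oxygen-dependent demethylases, which need oxygen to act on chromatin or RNA, KDM3A rose, from 233 and 144 to 512 and 556 (1.46 ± 0.28, adjusted p = 0.0269). The histone demethylase KDM4B was at 1.26 ± 0.26 (adjusted p = 0.0585), from 269 and 349 to 747 and 771, with no overlap, but its 8 probe sets ran from -0.52 to 1.28. The RNA demethylase ALKBH5 was at 0.63 (adjusted p = 0.301). With the RNA quality covariate KDM4B was at 0.78 and ALKBH5 at 0.29.

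Genes of glucose uptake and glycolysis were shifted upward as a group in these arrays. Of 22 tested, 5 rose, 17 did not pass, 20 had a positive value (54.4% over all genes) and 19 had hypoxia arrays above both normoxia arrays (25.0% over all genes). The median was 0.94, and 0.52 with the RNA quality covariate. SLC2A3, a glucose transporter with a near-identical copy that its probes may also report, went from 268 and 294 to 1010 and 996 (1.78 ± 0.27, adjusted p = 0.00622), the replicates being close. PFKFB4, which sets the level of the glycolytic activator fructose 2,6-bisphosphate, went from 42.9 and 38.9 to 190 and 151 (1.70 ± 0.25, adjusted p = 0.00582). Its second probe set gave 0.35. The committed-step enzyme PFKP went from 940 and 1116 to 2503 and 1971 (1.10 ± 0.20, adjusted p = 0.0216). Aldolase, ALDOA, went from 716 and 1110 to 2353 and 2366 (1.39 ± 0.23, adjusted p = 0.0118), and its 3 probe sets all gave at least 1.31. Triosephosphate isomerase, TPI1, went from 986 and 1324 to 2583 and 2523 (1.15 ± 0.18, adjusted p = 0.00949), but a dimmer probe set gave -0.33. SLC2A1, the glucose transporter often used as a hypoxia marker, had 1486 and 1698 against 2460 and 2050 and did not pass (0.50 ± 0.17, adjusted p = 0.334).

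Of 17 genes that decide the fate of pyruvate, lactate and protons, 1 rose and the median was 0.04. PDK1, the kinase that shuts pyruvate out of the citric acid cycle, went from 680 and 480 to 1228 and 1785 (1.35 ± 0.23, adjusted p = 0.0118), and its 3 probe sets ran from 1.24 to 1.81. LDHA, which makes lactate, was already at 5439 and 5450 in normoxia and reached 6623 and 6848. The replicates were close, but the change of 0.31 ± 0.12 did not pass (adjusted p = 0.408). BSG, the chaperone of the lactate exporters, was at 0.99 (adjusted p = 0.331, and 0.20 with the RNA quality covariate). Glycogen genes had a median of 0.50 with 0 of 11 past the threshold. Glycogen synthase, GYS1, went from 39.98 and 64.7 to 157 and 127 (1.23 ± 0.26, adjusted p = 0.0730), and the branching enzyme GBE1 from 920 and 662 to 1498 and 1492 (0.92 ± 0.21, adjusted p = 0.105). PGM1, which links glucose 1- and 6-phosphate, was at 0.72 (adjusted p = 0.153). None of 49 genes of the citric acid cycle and oxidative phosphorylation passed. Of these 31 had a positive value, against 54.4% of all genes tested, and the median was 0.07. The hypoxia arrays lay above both normoxia arrays in 16 (32.7%) and below both in 9 (18.4%), against 25.0% and 17.1% of all genes tested. The mitochondrial protease LONP1 was at 1.15 and the cytochrome oxidase subunits COX8A and COX6A1 at 0.97 and 0.69 (adjusted p = 0.169, 0.256 and 0.294), and with the RNA quality covariate at 0.52, 0.31 and 0.52. COXFA4, a cytochrome oxidase-associated subunit, was at 3139 and 3355 in normoxia against 2220 and 1811 in hypoxia (-0.69 ± 0.22, adjusted p = 0.301, and -0.44 with the covariate).

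Genes that remove mitochondria and restrain growth signalling were represented by 2 strong rises among 20 tested. BNIP3L, a mitophagy receptor of the outer mitochondrial membrane, went from 722 and 500 to 2401 and 2211 (1.91 ± 0.22, adjusted p = 0.000876), and both probe sets rose by at least 1.71. DDIT4, which inhibits mTOR complex 1 in hypoxia, went from 1508 and 1361 to 3781 and 3355 (1.30 ± 0.16, adjusted p = 0.00176). The autophagy kinase ULK1 was dim, at 5.71 and 14.6 against 45.3 and 25.2 (0.96, adjusted p = 0.231, and 0.62 with the RNA quality covariate). The list as a whole had a median of 0.14.

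Among 15 secreted and vasoactive factors 2 rose. NRN1, a small secreted neuronal protein gene, went from 7.76 and 5.24 to 111 and 70.7 (2.22 ± 0.26, adjusted p = 0.000876). ANGPTL4, a secreted inhibitor of lipoprotein lipase with effects on vessels, went from 1.52 and 2.28 to 40.7 and 33.6 (1.57 ± 0.25, adjusted p = 0.00949). Its signal was near 0 in normoxia, and with 1 in place of 16 added to the signals its change was 3.73. Its second probe set gave 0.06. NRN1 and ANGPTL4 had every normoxia signal of both lines under the filter on dim probe sets (13.8). They entered the test through their hypoxia arrays, so they could hardly have been tested without a rise. Other calls with normoxia signals near the filter in both lines may share this limit. Such signals ran from 8.91 to 15.4 for MIR210HG and from 7.04 to 17.9 for LOC154761. For CFAP96 they ran from 7.14 to 21.4 and for GPR146 from 3.02 to 19.7. The vasodilator peptide gene ADM went from 348 and 376 to 918 and 644 and just missed the threshold (1.06 ± 0.23, adjusted p = 0.0706). VEGFA, the principal vessel growth factor, was at 198 and 173 against 296 and 275. The groups did not overlap, but the change of 0.58 ± 0.24 did not pass (adjusted p = 0.415), and the 3 dimmer probe sets gave 0.87 to 1.09.

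The collagen-modifying genes included 2 rises among 14 tested. P4HA1, the catalytic subunit of collagen prolyl 4-hydroxylase, went from 1224 and 1143 to 2291 and 2610 (1.04 ± 0.18, adjusted p = 0.0130), whereas its other probe set gave -0.45. PLOD2, the lysyl hydroxylase that sets collagen cross-links, went from 1125 and 998 to 2150 and 2186 (1.02 ± 0.19, adjusted p = 0.0268), and its other probe set gave 1.11. PLOD1 and P4HB stood at 0.85 and 0.78 (adjusted p = 0.291 and 0.368), and at 0.48 and 0.34 with the RNA quality covariate. In lipid storage and uptake, 2 of 21 rose, VLDLR and HILPDA. HILPDA, a lipid droplet protein that inhibits lipolysis, went from 500 and 726 to 1383 and 1310 (1.14 ± 0.21, adjusted p = 0.0267). GPAT3, an enzyme of triglyceride synthesis, lay lower, at 654 and 802 against 1280 and 1170 (-0.74 ± 0.21, adjusted p = 0.223). Of 26 sterol and fatty acid synthesis genes, whose products include oxygen-consuming enzymes, 21 had a positive value, 0 passed and the median was 0.40. Over all genes tested 54.4% had a positive value. LSS, which forms lanosterol, was at 1.07 (adjusted p = 0.146).

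Of the 44 genes, 17 belonged to none of the 33 gene lists. LOC154761, an uncharacterised locus, went from 14.1 and 17.9 to 215 and 99.8 (2.35 ± 0.32, adjusted p = 0.00242). EFHD1, a calcium-binding mitochondrial protein gene, went from 68.5 and 55.3 to 366 and 278 (2.11 ± 0.28, adjusted p = 0.00242). RIMKLA, which encodes a synthetase of N-acetylaspartylglutamate, went from 222 and 217 to 1129 and 619, with the 2 hypoxia arrays apart (1.86 ± 0.27, adjusted p = 0.00433). CFAP96 went from 12.9 and 12.6 to 78.5 and 84.6 (1.76 ± 0.29, adjusted p = 0.00997). PRR15L, which had been placed with the junction genes and is not itself a keratin or a junction protein, went from 147 and 165 to 698 and 674 (2.03 ± 0.27, adjusted p = 0.00242). TNIP1, which restrains NF-kappaB signalling, went from 224 and 342 to 923 and 773 (1.55 ± 0.26, adjusted p = 0.0118), but its second probe set gave 0.14. Smaller rises outside the lists included those of ANKZF1, which acts in ribosome quality control (1.42), and WDR54 (1.17). POFUT4, a fucosyltransferase gene formerly called FUT11 and listed with the hypoxia genes, went from 319 and 279 to 629 and 856 (1.25 ± 0.24, adjusted p = 0.0267).

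Some of the genes that rose lie near each other in the genome. ANKRD37 and CFAP96 are on chromosome 4 with 1 tested gene between them, UFSP2, whose change was 0.07. ANKRD37 went from 213 and 194 to 561 and 549 (1.38 ± 0.22, adjusted p = 0.00985), although its other probe set gave -0.05. DDIT4 and P4HA1 are on chromosome 10 with 2 tested genes between them, DNAJB12 at 0.28 and MCU at 0.37. In 26 of the 44 genes the array had more than 1 probe set. In 23 of these all probe sets had a positive change and in 3, ANKRD37, TPI1 and P4HA1, a dimmer one was negative. When the probe sets of a gene were averaged, 13 of the 26 passed.

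No gene fell past the threshold. The 10 falls with the smallest p had adjusted p from 0.0704 to 0.213 in limma and no overlap between the arrays of their groups. Selection by a small p favours this, since 337 of the 342 lower genes at an unadjusted limma p under 0.05 had no overlap. LPAR1, a lysophosphatidic acid receptor, had 749 and 772 in normoxia and 398 and 379 in hypoxia (-0.94 ± 0.20, adjusted p = 0.0704). MRPL36, a mitochondrial ribosomal protein, had 1778 and 1354 against 873 and 833 (-0.85 ± 0.20, adjusted p = 0.118). HLTF, a helicase-like factor, was the lowest of all genes at -1.60 ± 0.38 (adjusted p = 0.124), but its normoxia arrays were far apart, with 64.2 and 215 against 30.2 and 27.4. The growth factor receptor adaptor GRB10 was at -1.03, the antisense transcript BDNF-AS at -1.03, TBC1D9 at -1.13, RPUSD4 at -0.64, the centrosomal protein gene NIN at -0.71, WRNIP1 at -0.56 and the RNA cap methyltransferase TGS1 at -0.88. Other probe sets of GRB10, TBC1D9 and NIN reached 0.05, 0.40 and 0.07. Those of 4 further genes stayed negative but gave smaller falls. They were at -0.46 and -0.16 for LPAR1, -0.09 to -0.03 for WRNIP1, -0.42 and -0.34 for TGS1 and -0.66 for BDNF-AS. Some of these falls passed in other fits: HLTF without DKO-3 normoxia replicate 1 (-2.37, adjusted p = 0.0173), LPAR1 with arrays centred on their median, and LPAR1, MRPL36 and TGS1 when either hypoxia array of DKS-5 was left out. WRNIP1 passed without DKS-5 hypoxia replicate 2, and TGS1 also in the 4 DKO-3 arrays alone (adjusted p = 0.0378). With the replicate number as a block HLTF, LPAR1 and MRPL36 passed (adjusted p = 0.0130, 0.0398 and 0.0467 in limma). With the RNA quality covariate MRPL36 was at -0.52, WRNIP1 at -0.31 and HLTF at -2.47, and none of the 10 passed.

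In other programmes of the colon cancer cell no gene, or only a gene also counted above, passed. Of 28 genes of ERK output and feedback 0 passed and the median was -0.12, with JUN at -0.86 (adjusted p = 0.307), EGR1 at -0.38 and the ERK inhibitor SPRY1 at 0.65 (adjusted p = 0.349). Other probe sets of JUN ran from -0.16 to 0.36, so its direction differed between them. For EGR1 the other bright probe set gave -0.42 and a dim one 0.24. The other probe set of SPRY1 was dim and gave 0.05. Of 30 ribosome biogenesis genes 0 passed and 18 had a negative value (median -0.15), as had 5804 of all 12735 genes tested. Both hypoxia arrays lay below both normoxia arrays in 12 of the 30 (40%), against 17.1% of all genes tested. They lay above in 1 (3.3%), against 25.0%. RRS1 was at 2149 and 2338 against 1365 and 1664 (-0.57, adjusted p = 0.344). Of 23 p53 targets 0 passed (median -0.14), with the stress cytokine GDF15 at 0.99 and the cell cycle inhibitor CDKN1A at 0.47 (adjusted p = 0.178 and 0.470). Without array scaling, which moved the median of all genes to 0.20, the medians of the ERK, ribosome biogenesis and p53 lists were at 0.07, 0.04 and 0.05. Of 47 cell cycle and replication genes 0 passed (median 0.14), with thymidine kinase, TK1, at 1.34 (adjusted p = 0.0662, and 0.81 with the RNA quality covariate). Of 35 genes of unfolded protein and amino acid stress VLDLR, a lipoprotein receptor, was the only member to rise (median -0.05). The stress pseudokinase TRIB3 was at 1.17 and the cystine transporter SLC7A11 at -0.80 (adjusted p = 0.152 and 0.275), and with the covariate at 0.76 and -0.51. Of 36 cytosolic ribosomal proteins 0 passed (median 0.05). RPL29 had 518 and 1729 in normoxia against 1806 and 1940 in hypoxia and was at 0.97, and at -0.11 with the covariate.

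**Figure D4:**
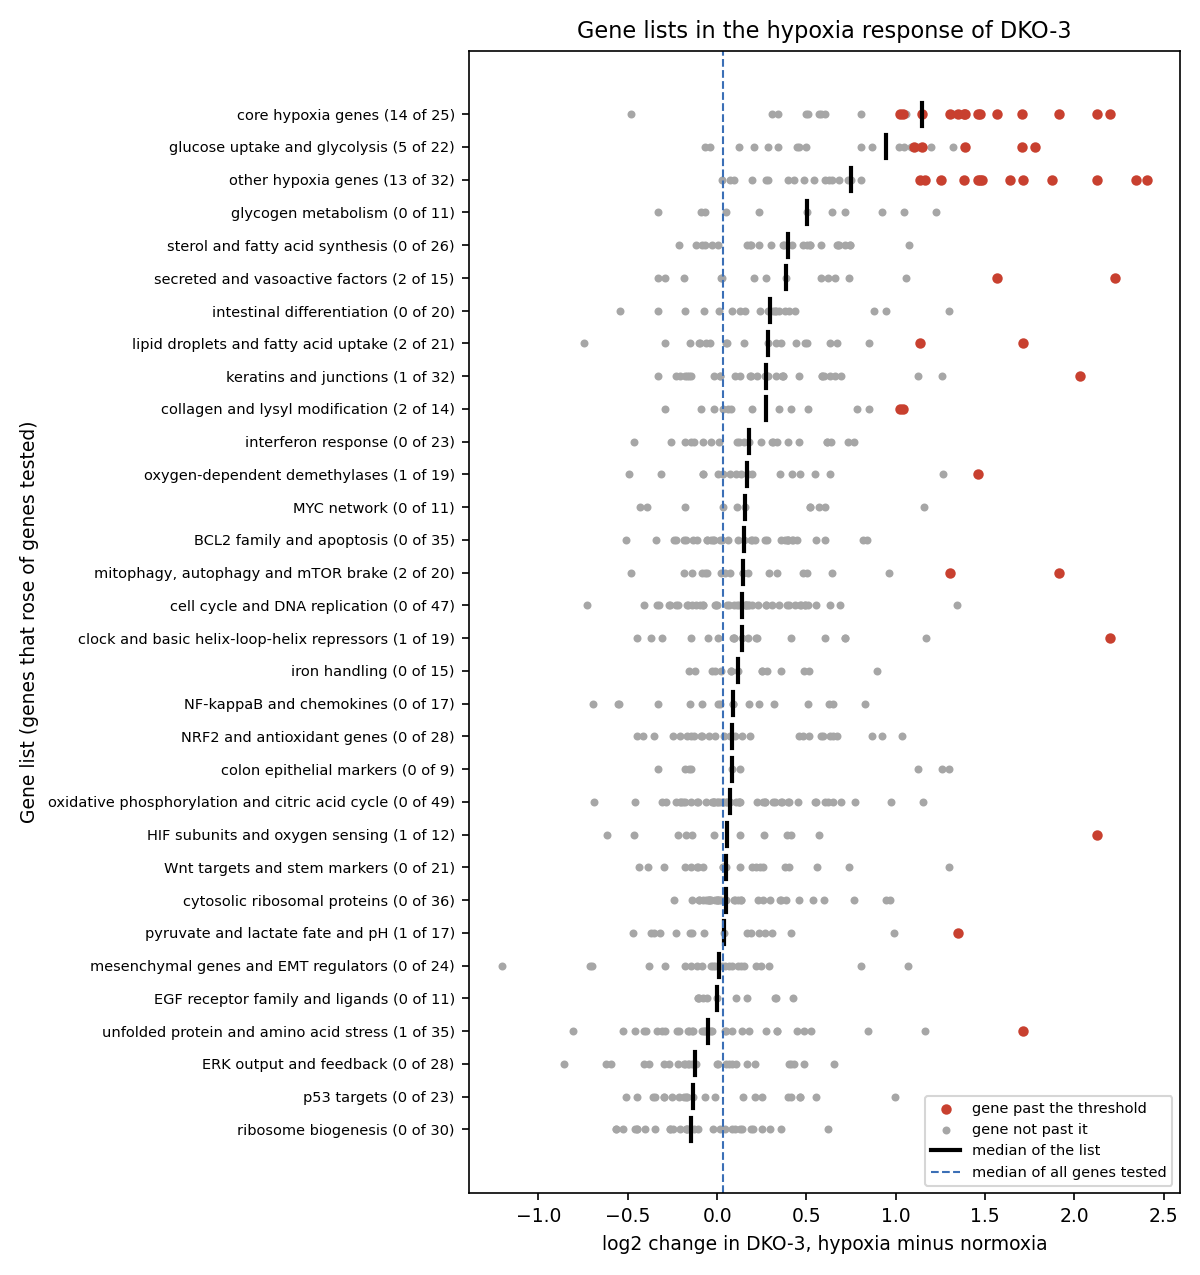
Change in DKO-3 on the log2 scale (x) of each tested gene in 32 of the 33 lists (y), with genes past the threshold in red, list medians as bars and the median of all genes tested as a dashed line. Core hypoxia genes, glycolysis and further hypoxia genes have medians of 1.15, 0.94 and 0.75, and medians of the other lists lie between -0.15 and 0.50.

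Among epithelial identity genes PRR15L was the only call. Among 20 intestinal differentiation genes 0 passed and 16 had a positive value, against 54.4% of all genes tested (median 0.30, and 0.08 with the RNA quality covariate). The intestinal transcription factor CDX2 went from 38.0 and 74.0 to 220 and 108 (1.30 ± 0.38, adjusted p = 0.251, and 0.49 with the covariate), and the mucins MUC1 and MUC13 were at 0.94 and -0.54 (adjusted p = 0.213 and 0.446). Among 32 keratins and junction genes 24 had a positive value and the median was 0.27, and -0.02 with the covariate. KRT19 went from 951 and 1744 to 2930 and 2722 (1.12 ± 0.24, adjusted p = 0.0730) and KRT8 from 238 and 769 to 864 and 1284 (1.26 ± 0.44, adjusted p = 0.346). With the covariate KRT19 was at 0.53 and KRT8 at -0.12. In both keratins the normoxia array with the higher ACTB ratio, replicate 1, was the dimmest of the 4. Of 24 mesenchymal genes 0 passed (median 0.01), with the integrin ITGA5 at 1.07 (adjusted p = 0.146). The lists of iron handling, EGF receptor and ligands, NRF2 and antioxidant genes, NF-kappaB and chemokines, interferon response, BCL2 family and apoptosis, and Wnt targets and stem markers each had 0 genes past the threshold, with medians between -0.002 and 0.18.

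Set beside the K-ras mutant line DKS-5, in which 64 genes rose (0.503%) and 0 fell, the response of DKO-3 was not shown to differ for any gene. Of the 44 genes, 31 also rose in DKS-5, which is 70.5% of the DKO-3 calls and 48.4% of the DKS-5 calls. The median change of the 44 was 1.502 in DKO-3, where they were selected, and 1.52 in DKS-5, and 43 of the 44 were positive there, as were 53.4% of all genes. The test of the difference between the responses called 0 genes in limma. At an unadjusted p under 0.05 it gave 333 genes (2.61%), 194 with the larger change in DKO-3 and 139 with the larger change in DKS-5, and the smallest adjusted p was 0.738. Of all 44 genes, 19 had the larger change in DKO-3 and 25 in DKS-5. Of the 31 genes that rose in both lines, 6 had the larger change in DKO-3 and 25 in DKS-5. Requiring a call in DKS-5 favours the latter. All 13 that passed in DKO-3 and not in DKS-5 had the larger change in DKO-3, which their selection favours. The ACTB ratio was higher in every DKS-5 array (25.6 to 55.1) than in the DKO-3 hypoxia arrays (11.47 and 11.02). The differences between the lines given here carry no RNA quality term.

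**Figure D5:**
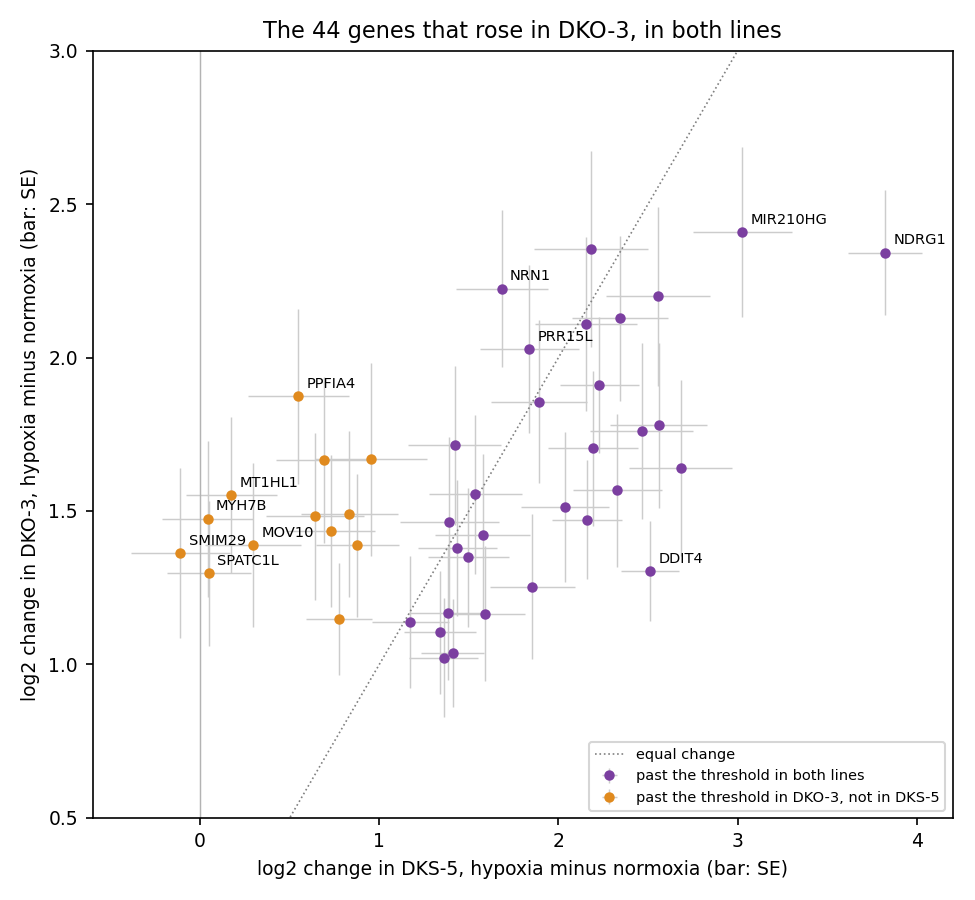
Change on the log2 scale in DKS-5 (x) and DKO-3 (y) of the 44 genes that rose in DKO-3, with bars of 1 SE and a dotted line of equal change. Of the 31 genes that rose in both lines (purple), 25 lie to the right of the line and 6 to its left. NDRG1 is at 2.34 in DKO-3 and 3.82 in DKS-5. The 13 that passed in DKO-3 alone (orange) lie to the left of the line, from 1.15 to 1.87 in DKO-3. The selection of each set by its calls favours these splits.

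The 5 smallest p toward a smaller response in DKO-3 were those of NDRG1, DDIT4, VEGFA, KISS1R and ARLN. They were picked by that p, and the intervals are per gene, not adjusted for the number of genes tested. NDRG1 reached about the same hypoxic signal in both lines, 2006 and 1932 in DKO-3 and 1996 and 2097 in DKS-5, but started from 413 and 342 in DKO-3 against 132 and 127. Its fitted response was smaller in DKO-3 but was not shown to differ, with a difference of -1.48 on the log2 scale (95% interval -2.10 to -0.87, adjusted p = 0.738). DDIT4 reached 3781 and 3355 in DKO-3 and 5297 and 5225 in DKS-5, from 1508 and 1361 and from 867 and 953, a difference of -1.21 (-1.70 to -0.72, adjusted p = 0.738). VEGFA reached 296 and 275 in DKO-3 and 1200 and 865 in DKS-5, from 198 and 173 and from 231 and 214, a difference of -1.54 (-2.25 to -0.82). Its adjusted p was 0.9995, as for the genes that follow. The value for VEGFA rests on the brightest probe set, since the 3 dimmer ones gave 0.87 to 1.09 in DKO-3 and 1.04 to 1.24 in DKS-5. KISS1R, a receptor for kisspeptin, was at -0.04 in DKO-3 and 1.497 in DKS-5. ARLN was at 0.32 and 1.38, though another of its probe sets gave 1.45 in DKO-3.

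In the other direction, 13 of the 44 genes did not pass in DKS-5. They were PPFIA4, TMEM141, SLC67A1, MT1HL1, MAP7D2, GPR146, MYH7B, NARF, MOV10, ALDOA, SMIM29, SPATC1L and TPI1. PPFIA4, which encodes a liprin scaffold, went from 48.8 and 32.0 to 233 and 152 in DKO-3 (1.87 ± 0.28, adjusted p = 0.00622) and from 12.2 and 14.1 to 35.4 and 19.3 in DKS-5. MT1HL1, a metallothionein-like gene whose probes may also report other family members, went from 79.9 and 71.3 to 291 and 218 in DKO-3 (1.55 ± 0.25, adjusted p = 0.0102), while DKS-5 had 73.6 and 101 against 101 and 98.3. In DKS-5, 12 of the 13 had a positive value and SMIM29 a negative one (-0.11). The glycolytic genes ALDOA and TPI1, described above, were at 0.88 and 0.77 in DKS-5 (adjusted p = 0.214 and 0.112). TMEM141, a small membrane protein gene, went from 60.8 and 133 to 304 and 346 in DKO-3 (1.67 ± 0.31, adjusted p = 0.0267) and was at 0.95 in DKS-5. With the RNA quality covariate its change in DKO-3 was 0.93. SLC67A1, a transporter gene formerly called SLC22A18, went from 15.2 and 10.7 to 95.5 and 59.0 (1.67 ± 0.27, adjusted p = 0.00997) and was at 0.69 in DKS-5. MAP7D2, a microtubule-associated protein gene, had values of 1.49 and 0.83 in DKO-3 and DKS-5, the receptor GPR146 of 1.48 and 0.64, NARF, a prelamin-binding protein gene, of 1.44 and 0.73, and the RNA helicase MOV10 of 1.39 and 0.29. The metallothionein MT1F was at 0.92 in DKO-3 and did not pass (adjusted p = 0.291, and 0.52 with the covariate). For MYH7B, a myosin heavy chain gene, DKO-3 went from 8.48 and 6.16 to 56.1 and 42.2 (1.48 ± 0.25, adjusted p = 0.0141), whereas DKS-5 had 63.8 and 71.7 in normoxia already. SMIM29 likewise went from 21.5 and 5.51 to 56.5 and 57.6 in DKO-3 and stood at 51.0 and 55.4 in DKS-5 normoxia. SPATC1L went from 2.22 and 1.53 to 28.1 and 27.6, with 20.0 and 15.03 in DKS-5 normoxia. In DKO-3 normoxia these 3 genes were dim, and a second probe set of MYH7B gave 0.11. The difference of the responses was 1.33 for PPFIA4 (0.47 to 2.18), 1.38 for MT1HL1 (0.61 to 2.14), 1.43 for MYH7B (0.67 to 2.20), 1.47 for SMIM29 (0.64 to 2.31) and 1.25 for SPATC1L (0.54 to 1.96). These intervals are not adjusted either, and the genes were selected for passing in DKO-3 and not in DKS-5. Outside the 44, BCL2L10 had a difference of 1.60 (0.76 to 2.44), with overlapping arrays in DKO-3.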

How the data were processed

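The 8 arrays were taken as deposited. Per the submitters' processing notes the deposited intensity values were made with MAS5, on a linear scale for 54675 probe sets. Which version of MAS5 and which scaling target is not given in the sources used here. Detection calls were not part of the tests. Per the labels' protocols, column-purified RNA was amplified by the NuGEN Ovation V2 method and biotin-labelled.

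Here the 62 control probe sets were left out, each array was scaled to a common 2% trimmed mean (172.1), and log2(signal + 16) was taken. Of the probe sets, 41091 had 1 gene symbol in the platform annotation, 1801 had several and 11721 were unnamed here. Each of 19775 genes was represented by its probe set with the highest mean, and 12735 genes above the 40th percentile of probe set means (a signal of 13.8) were tested. Limma 3.58.1 in R 4.3.3 fitted 1 mean per group over all 8 arrays (eBayes with trend, 4 residual and 11.3 prior degrees of freedom, two-sided, Benjamini-Hochberg, threshold 0.05). The number of arrays limits the precision. The script was tested on simulated data. The 33 lists held 844 genes, 685 tested, and older symbols were updated through RefSeq. Lists are described by counts and medians, without a test. The comparison, the lists and the rule for named genes were chosen with earlier results of these data known. Named were up to 30 largest rises past the threshold without overlap, 10 falls (the smallest p, since none passed), up to 4 members per list with an unadjusted p under 0.05, HIF1A, EPAS1, ARNT, VEGFA, SLC2A1 and core genes past the threshold, 5 genes each way for the difference of the responses, and the remaining calls, 147 genes in all. Some list members and the K-ras gene are not analysed here. The RNA quality covariate was the mean log2 of the ACTB and GAPDH 3′ to 5′ ratios. There were 21 alternative fits, which changed the scaling, the added constant, the filter, the choice of probe set, the model or the arrays.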

Additional observations from a re-analysis of the deposited data

Results flagged for a closer look

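In 4 of the genes named, both arrays of DKO-3 hypoxia lay on the opposite side of normoxia from both arrays of DKS-5 hypoxia. The test of the difference between the responses passed for none of them, with an adjusted p of 0.9995 in limma for each, and the smallest adjusted p over all genes was 0.738. ETAA1, FAM86B3P and IL19 were named by a small p for this difference, which favours such a pattern. How many of all genes show it was not counted. PDIA4, a protein disulphide isomerase of the endoplasmic reticulum, had 3308 and 3354 in DKO-3 normoxia against 2332 and 2512 in hypoxia, and 3148 and 2898 against 3486 and 3408 in DKS-5, a difference of the responses of -0.65 ± 0.21 (SE). ETAA1, an activator of the ATR kinase at stalled replication forks, had 196 and 139 against 281 and 293 in DKO-3, and 310 and 286 against 125 and 200 in DKS-5, a difference of 1.59 ± 0.38. FAM86B3P, a pseudogene whose probes may also report its relatives, had 37.1 and 23.4 against 72.6 and 56.5 in DKO-3, and 62.6 and 62.9 against 31.5 and 38.5 in DKS-5, a difference of 1.44 ± 0.36. Its other probe sets reached down to -0.38 in DKO-3. IL19, a cytokine gene, was dim throughout, with 8.73 and 3.11 against 32.9 and 19.8 in DKO-3 and 29.9 and 18.4 against 12.5 and 11.7 in DKS-5, a difference of 1.45 ± 0.37.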

How the results depend on the processing

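The count of 44 genes became 84 without array scaling (all higher, with the median of all genes moved from 0.04 to 0.20), 7 without the filter on dim probe sets, 68 in a fit of the 4 DKO-3 arrays alone (67 higher, 1 lower) and 8 with the RNA quality covariate. Leaving out 1 of the 8 arrays gave 1 to 69 calls, the 1 without DKO-3 hypoxia replicate 1 and the 69 without DKS-5 hypoxia replicate 2 (61 higher, 8 lower). The other settings gave between 33 and 44. The test of the difference between the responses called 0 genes in every setting run. With the replicate number as a block the count was 92 (89 higher and 3 lower, the latter HLTF, LPAR1 and MRPL36 with adjusted p of 0.0130, 0.0398 and 0.0467). Same-numbered DKO-3 arrays of the 2 oxygen levels deviated from their group means with r = -0.09 across genes, and the 6 pairs of groups ran from -0.09 to 0.33, so the numbers were not taken to pair the arrays. Among named genes, 7 values changed sign: with the covariate HIF1A was at 0.013, ARNT at -0.022, RPL29 at -0.11, KRT8 at -0.12 and KISS1R at 0.10, and KISS1R was also at 0.092 without scaling and at 0.12 without DKO-3 normoxia replicate 1 (lowest -0.20, without normoxia replicate 2). Of the other values of named genes, 2757 kept their direction and their side of the threshold, 247 lost a call and 48 gained one. The medians of the core, glycolysis and further hypoxia lists stayed above 0 in all 22 fits, from 0.97 to 1.34, from 0.52 to 1.14 and from 0.64 to 0.95. The causes of these shifts were not tested. Signals near the filter of 13.8 limit what can be said of genes such as ANGPTL4, SPATC1L and GPR146.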
